A study of Mus musculus with 10 samples.

Results

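The mammalian target of rapamycin (mTOR) is a kinase that works in 2 protein complexes, and 10 genes that encode the core of these complexes and their closest regulators were followed here in lung squamous cell carcinoma (SCC) of the mouse. The genes were Mtor, Rptor, Rictor, Mlst8, Deptor, Akt1s1, Tsc1, Tsc2, Rheb and Ddit4, chosen by name out of the 19096 genes with a probe on the array. Probes were assigned to them through the accession that the scanner files give for each probe, and each gene was represented by its probe with the highest mean over all 10 arrays. The array carried 17 probes for these genes, and all 10 representative probes were above background on all 10 arrays.

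Samples were total RNA in 5 samples of whole lung from wild type (WT) mice and 5 samples of whole lung tumour from mice with SCC, each on 1 single-colour Agilent array. All mice were of strain B6.129, as labelled, were 13 months old and received no treatment. The WT mice were Lkb1f/f, so both groups carried the floxed allele, and the tumour-bearing mice were CCSPiCreLkb1f/f. In the latter, Cre is driven by the promoter of the Club Cell Secretory Protein gene, which is active in airway epithelium, and whole tumour tissue also holds cells of other types. Levels of Lkb1 (Stk11) itself are not analysed here.

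mTOR joins Raptor (encoded by Rptor) in mTOR complex 1 (mTORC1), which drives protein and lipid synthesis and holds back autophagy when amino acids and growth factors are plentiful. With Rictor it forms complex 2 (mTORC2), which phosphorylates AKT, SGK and PKC kinases. LKB1 is the kinase upstream of AMPK, and AMPK restrains mTORC1 by phosphorylating TSC2 and Raptor. The study examined mTOR as a known target of LKB1. It reported lower mTOR phosphorylation and unchanged AMPKα phosphorylation in the SCC, and no significant change of either in lungs before tumours formed. It proposes that LKB1 acts through other pathways in these tumours. The arrays measured mRNA only, and complex activity is set largely by phosphorylation.

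A value below is log2 of the quantile-normalized intensity of a probe, a difference is SCC minus WT in those log2 units, and an adjusted p is from limma, adjusted by the method of Benjamini and Hochberg across 30374 tested probes. A gene was called when its adjusted p was below 0.05 and its difference was at least 2-fold. In bulk tissue, fewer cells of a type and less RNA per cell cannot be told apart. Levels of different probes are not comparable, so only differences between groups are compared across genes.

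Squamous markers were high in the tumours, and markers of several normal lung cell types were lower. All 10 squamous markers were called higher, and their mean value was 4.15 to 4.29 on WT arrays and 11.85 to 15.60 on SCC arrays (Krt6a, Dsg3, Pkp1, Sprr2d and Serpinb5 were above background on no WT array). All 8 endothelial markers fell (mean value 13.21 to 13.42 against 10.83 to 11.89), as did all 5 tested alveolar type 1 markers. Of 8 proliferation markers, 7 rose. Cardiac muscle markers fell in 5 of 6 cases, from 10.27 to 14.01 on WT arrays to 8.45 to 10.24. The part of these shifts in tissue composition in the differences below was not tested.

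A pair of SCC arrays stood apart. SCC replicate 2 had the lowest squamous mean (11.85, against 15.25 to 15.60 on the other 4) and a neutrophil marker mean of 10.25, inside the WT range of 10.23 to 11.15, where the other 4 were at 12.48 to 12.62. SCC replicate 5 had 90.2% of probes above background, against 71.0% to 74.5% on the other 9 arrays. The labels give no sex. The X-inactivation transcript Xist was low (2.27 to 4.33) in WT replicates 2 and 3 and in SCC replicate 2 but high (13.75 to 14.19) elsewhere, while the Y-linked Ddx3y on SCC replicate 5 was at 8.34, between the 10.91 to 11.53 of those 3 arrays and the 2.05 to 4.87 of the rest. SCC replicate 5 thus carried both transcripts, and whether its RNA came from more than 1 sample cannot be told from the labels. The arrays lay on 3 slides, with WT replicates 1 to 4 on the first, WT replicate 5 and SCC replicates 1 to 3 on the second, and SCC replicates 4 and 5 on the third, so slide and group were largely confounded.

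Of the 10 genes, 4 passed an adjusted p of 0.05, against 53.9% of the 15586 genes tested with 1 probe each. Tsc2, Rictor and Mtor fell and Akt1s1 rose. By its brightest probe, none of the 10 was called with a 2-fold difference, where 24.9% of genes were, and neither the methods' t-test, by which 5 genes passed, nor an unadjusted p below 0.05, which 4 had, gave any at 2-fold. The groups did not overlap for 3 of the 10 genes, against 41.4% of all genes. The median difference over the 10 was -0.17, beside -0.04 over all tested genes. Only 3 of them, Tsc2, Deptor and Rictor, had a difference larger than the median absolute difference of 0.488. Leaving out both SCC arrays that stood apart, 5 genes passed, 1 higher and 4 lower, and without SCC replicate 5 alone 3 passed, 1 higher and 2 lower.

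**Figure D1:**
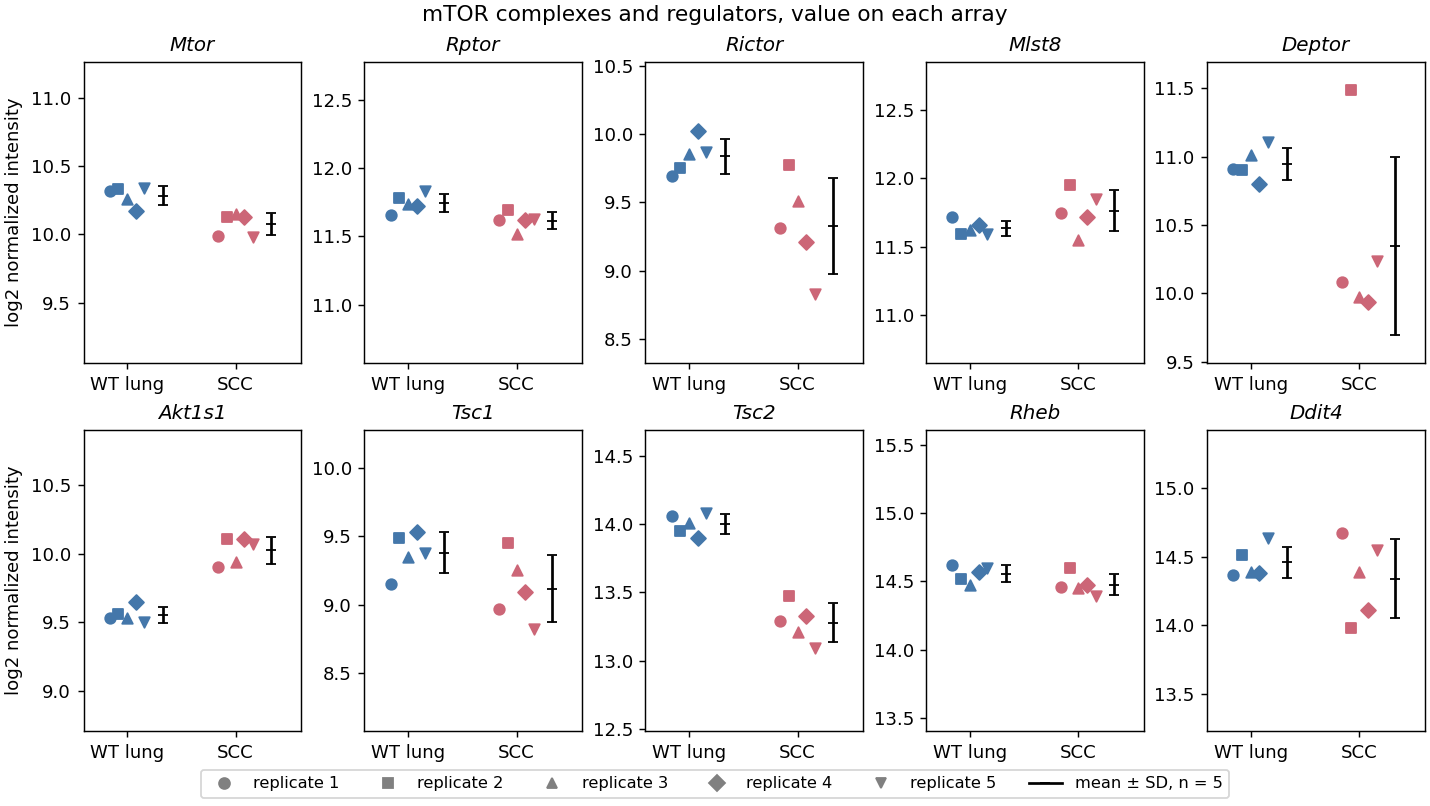
Log2 normalized intensity of the 10 genes on each array, WT lung in blue and SCC in red, with a marker shape for each replicate and the mean ± SD (n = 5) beside the points; all panels span the same number of log2 units. Tsc2 and Mtor lay lower and Akt1s1 higher on every SCC array than on any WT array, and for Deptor SCC replicate 2 (11.49) lay above all WT arrays while the other 4 SCC arrays lay below them.

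Tsc2 encodes tuberin, the GTPase-activating subunit of the TSC complex, which switches off RHEB and thereby mTORC1. With all arrays it had the largest difference among the brightest probes of the 10 genes, although without SCC replicate 2 Deptor was larger (-0.89, against -0.77 for Tsc2), as it was with array weights (-0.86 against -0.70). Its values were 14.06, 13.95, 14.01, 13.90 and 14.08 on WT replicates 1 to 5, and 13.29, 13.47, 13.21, 13.33 and 13.09 on SCC replicates 1 to 5. Every SCC array was below every WT array. The mean fell from 14.00 ± 0.0740 to 13.28 ± 0.141 (SD, n = 5 each), a difference of -0.72 (SE 0.0915, 95% interval -0.93 to -0.52, adjusted p 0.000181), or 0.607 times the WT level. The exact two-sided permutation p was 0.00794, the smallest that 10 arrays can give. The fall passed the threshold under every alternative processing tried and without each single array, and with slide as a block, which rests on the second slide and its single WT array, it was -0.75 (adjusted p 0.033). Still, 37.2% of tested genes had a larger difference in absolute size.

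Akt1s1 encodes PRAS40, a substrate and inhibitor of mTORC1 that AKT phosphorylates. It was the 1 gene of the 10 that rose. Its values were 9.53, 9.56, 9.53, 9.65 and 9.50 on WT arrays and 9.90, 10.11, 9.94, 10.11 and 10.07 on SCC arrays, again without overlap. The difference was 0.47 (SE 0.0798, 95% interval 0.29 to 0.65, adjusted p 0.000984; exact permutation p 0.00794), 1.39 times the WT level. It lost the threshold with slide as a block, where it was 0.49 (adjusted p 0.078), and kept it without each single array. Within an array, the value of Tsc2 less that of Akt1s1 was 4.25 to 4.58 on WT arrays and 3.02 to 3.40 on SCC arrays. This gap follows from the separate gaps of both genes and is not a further result.

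The stretch just upstream of these genes' starts is shown because they moved furthest in opposite directions among the genes that passed. Ddit4 is added as the stress-induced member of the set. The sequences are the 250 bases before the RefSeq start, 5′ to 3′ on the strand of the gene, in build GRCm38.p6 (the array design itself was made on an older build). Capitals mark matches to any of 5 short motifs searched on both strands: ACGTG (the core of the hypoxia response element), AGAACA (a glucocorticoid receptor half-site), TGATGNAA (an ATF4 element), CACGTG (the E-box that TFEB and TFE3 recognise, which contains ACGTG) and TGACG (a CREB/ATF half-site).
Tsc2, chr17:24632628-24632877, minus strand: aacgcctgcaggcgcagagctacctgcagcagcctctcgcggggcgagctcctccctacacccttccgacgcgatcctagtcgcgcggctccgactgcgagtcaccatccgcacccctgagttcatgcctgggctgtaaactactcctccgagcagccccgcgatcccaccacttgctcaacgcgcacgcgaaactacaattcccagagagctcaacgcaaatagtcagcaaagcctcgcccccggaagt
Akt1s1, chr7:44850122-44850371, plus strand: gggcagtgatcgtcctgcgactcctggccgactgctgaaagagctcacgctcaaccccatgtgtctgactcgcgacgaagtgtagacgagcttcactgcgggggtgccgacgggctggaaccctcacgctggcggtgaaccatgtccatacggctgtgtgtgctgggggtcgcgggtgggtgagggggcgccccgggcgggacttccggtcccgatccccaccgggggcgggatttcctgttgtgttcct
Ddit4, chr10:59951771-59952020, minus strand: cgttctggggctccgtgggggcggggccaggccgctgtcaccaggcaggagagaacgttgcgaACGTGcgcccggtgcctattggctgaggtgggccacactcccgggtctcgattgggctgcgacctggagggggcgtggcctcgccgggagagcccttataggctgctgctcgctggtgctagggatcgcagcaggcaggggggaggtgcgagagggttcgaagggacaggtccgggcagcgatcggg

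None of the 5 motifs was in the Tsc2 or Akt1s1 stretch, nor in those of Mtor, Rictor and Mlst8, and Ddit4 held 1 match to ACGTG. Rheb held an E-box and TGACG, Rptor held ACGTG and TGACG, and Tsc1 held TGACG. Of the 32851 mouse promoter stretches of that length in the table, 16.6% held ACGTG, 16.1% AGAACA, 3.45% TGATGNAA, 6.02% CACGTG and 17.8% TGACG. Of the 10 genes, 9 were in the table and Deptor was not. A match is only a description of the letters in that window.

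**Figure D2:**
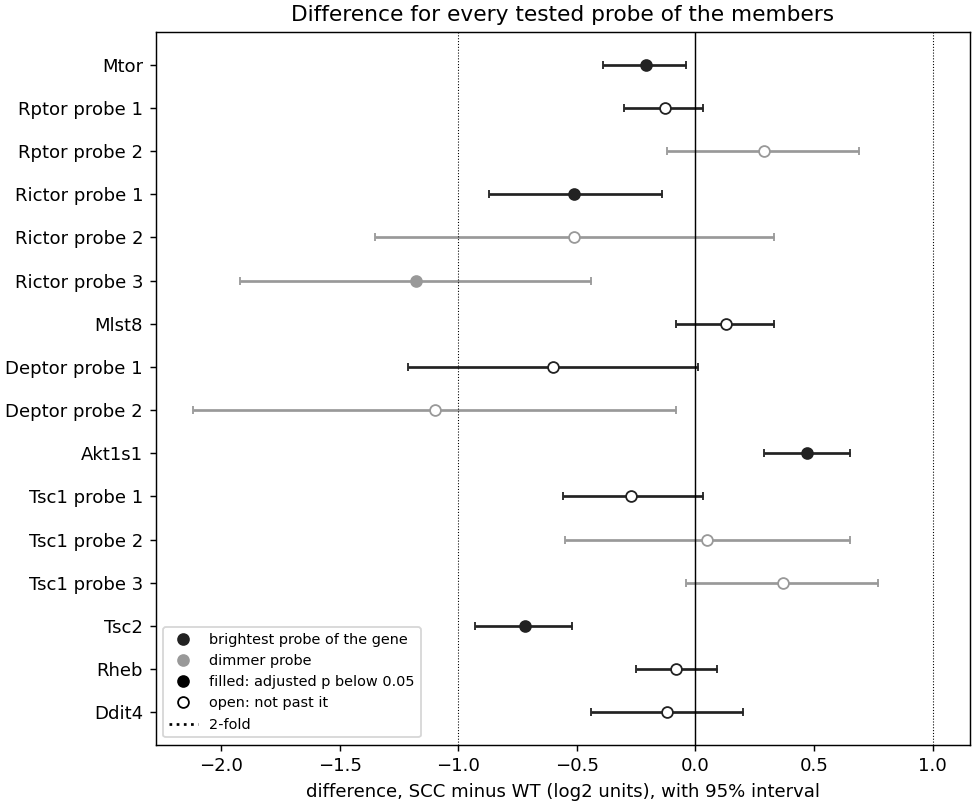
Difference between SCC and WT in log2 units with its 95% interval for each of the 16 tested probes of the 10 genes; black is the brightest probe of a gene, grey a dimmer one, filled points passed an adjusted p of 0.05, and dotted lines mark 2-fold. The intervals of Tsc2 (-0.93 to -0.52) and Akt1s1 (0.29 to 0.65) were the farthest from 0 among the brightest probes, and the dimmer probes of Rictor and Deptor had the widest.

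Mtor, the kinase subunit shared by both complexes, fell slightly. It was at 10.32, 10.33, 10.26, 10.17 and 10.34 on WT arrays and at 9.99, 10.13, 10.15, 10.13 and 9.98 on SCC arrays. The groups did not overlap, by a margin of 0.02 between the lowest WT and the highest SCC array. The difference was -0.21 (SE 0.0782, 95% interval -0.39 to -0.04, adjusted p 0.0475; exact permutation p 0.00794), or 0.864 times WT, and 75.8% of tested genes had a larger one. The result was marginal. The threshold on the adjusted p was missed when any single array other than WT replicate 4 or SCC replicate 2 was left out (adjusted p between 0.0248 and 0.106 over all 10), with slide as a block (-0.25, adjusted p 0.327), with normexp background correction (adjusted p 0.0873) and with no filter on dim probes (adjusted p 0.0712), though the difference stayed between -0.25 and -0.18 throughout.

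Rictor, the scaffold that defines mTORC2, was lower in SCC. Its values were 9.69, 9.75, 9.85, 10.02 and 9.87 on WT arrays and 9.31, 9.77, 9.51, 9.21 and 8.83 on SCC arrays. SCC replicate 2 lay inside the WT range and the other 4 SCC arrays below it. The mean went from 9.84 ± 0.127 to 9.33 ± 0.349 (SD, n = 5), a difference of -0.51 (SE 0.164, 95% interval -0.87 to -0.14, adjusted p 0.0271; exact permutation p 0.0238). Without SCC replicate 2 it was -0.62 (adjusted p 0.00423). The threshold on the adjusted p was missed without WT replicate 3, 4 or 5 or SCC replicate 1 or 4 (adjusted p 0.0528 to 0.0641) and with slide as a block (-0.34, adjusted p 0.388).

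The other Rictor probes were dimmer. The second differed by -0.51 (adjusted p 0.281). On it, SCC replicate 5 was at 4.03 and the other SCC arrays at 5.61 or more, and the difference was -0.12 without SCC replicate 5, -0.03 under scaling to the 75th percentile and -0.01 with slide as a block. The third was above background on 5 WT and 2 SCC arrays and differed by -1.18 (SE 0.331, adjusted p 0.0145), which under scaling to the 75th percentile became -0.69 and no longer passed, and which with normexp background correction was -0.21 (adjusted p 0.0364). The fourth was above background on 3 WT and 2 SCC arrays and was not tested.

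Rptor, the scaffold that brings substrates to mTORC1, differed little. It was between 11.66 and 11.83 on WT arrays and between 11.52 and 11.69 on SCC arrays, with 4 of the 5 SCC arrays below all WT arrays. The difference was -0.13 (SE 0.0739, 95% interval -0.30 to 0.03, adjusted p 0.166; exact permutation p 0.0159, not adjusted). With the methods' t-test it passed (adjusted p 0.0243). The dimmer Rptor probe went the other way, at 0.29 (adjusted p 0.212). It passed in that direction without SCC replicate 5 (0.43, adjusted p 0.0304), without SCC replicates 2 and 5 (0.51, adjusted p 0.0105) and with array weights (0.39, adjusted p 0.0186). It was 0.66 (adjusted p 0.0544) under scaling to the 75th percentile and 0.11 (adjusted p 0.27) with normexp background correction. The probes of this gene thus differed in sign, although neither passed in the main limma fit. Within an array, the value of Rictor less that of Rptor was -2.03 to -1.69 in WT and -2.79 to -1.91 in SCC, a change of -0.38 in the mean, with both groups overlapping.

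Mlst8, the small subunit that both complexes share, was at 11.59 to 11.72 on WT arrays and at 11.55 to 11.95 on SCC arrays. Its difference of 0.13 (SE 0.0916, 95% interval -0.08 to 0.33) did not pass (adjusted p 0.276; exact permutation p 0.127). The interval leaves room for a change in either direction of well under 2-fold.

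Deptor, an inhibitor that binds mTOR in both complexes, was uneven among the tumours. It was at 10.91, 10.90, 11.01, 10.80 and 11.11 on WT arrays and at 10.08, 11.49, 9.97, 9.94 and 10.24 on SCC arrays. SCC replicate 2 exceeded every WT array, whereas the remaining 4 SCC arrays were below every WT array. With all arrays the difference was -0.60 (SE 0.275, 95% interval -1.21 to 0.01) and did not pass (adjusted p 0.0956; exact permutation p 0.0635). Without SCC replicate 2 it was -0.89 with an adjusted p of 5.48e-05. The dimmer Deptor probe was at 9.76, 9.85, 9.97, 9.65 and 11.91 on WT arrays and at 8.98, 10.09, 8.94, 8.47 and 9.13 on SCC arrays. There too SCC replicate 2 was the highest SCC array, but WT replicate 5 stood above all others. That probe differed by -1.1 (SE 0.457, adjusted p 0.0697), and by -1.35 (adjusted p 0.0296) without SCC replicate 2. Without WT replicate 5 it was -0.68 (adjusted p 0.0822), and with slide as a block, where WT replicate 5 is the single WT array behind the comparison, it was -2.57 (adjusted p 0.0144). WT replicates 2 and 3, which shared the Xist pattern of SCC replicate 2, had Deptor values within the range of the other WT arrays. No other SCC array had that pattern, so among the tumours it cannot be told apart from that sample. Its part in the Deptor values was not tested.

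Tsc1 encodes hamartin, the partner that stabilises tuberin. It was at 9.15, 9.49, 9.35, 9.53 and 9.38 on WT arrays and at 8.97, 9.45, 9.25, 9.09 and 8.82 on SCC arrays, so the groups overlapped. The difference of -0.27 (SE 0.133, 95% interval -0.56 to 0.03) did not pass (adjusted p 0.124; exact permutation p 0.0873). The dimmer Tsc1 probes differed by 0.05 (adjusted p 0.894) and 0.37 (adjusted p 0.117), so the probes of this gene disagreed in sign. Without SCC replicate 2 the brightest probe passed at -0.35 (adjusted p 0.0262) and the dimmest at 0.49 (adjusted p 0.025), in opposite directions. The second probe passed, higher in SCC, under scaling to the 75th percentile (0.39, adjusted p 0.0435) and with array weights (0.34, adjusted p 0.0422). It also passed without SCC replicates 2 and 5 (adjusted p 0.031). Tsc2 less Tsc1 within an array was 4.37 to 4.91 in WT and 3.96 to 4.33 in SCC, without overlap. Tbc1d7, the third subunit of the TSC complex, rose by 0.45 (adjusted p 0.0104), so its 3 subunits did not move together.

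Rheb encodes the small GTPase that activates mTORC1 at the lysosome and on which the TSC complex acts. It was at 14.47 to 14.62 on WT arrays and 14.39 to 14.60 on SCC arrays, and the difference of -0.08 (SE 0.0759, 95% interval -0.25 to 0.09) did not pass (adjusted p 0.391; exact permutation p 0.103). Its sign turned under scaling to the 75th percentile, where it was 0.03.

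Ddit4 encodes REDD1, which is induced by hypoxia, glucocorticoids and amino acid stress and restrains mTORC1 through the TSC complex. It was at 14.37, 14.51, 14.39, 14.38 and 14.64 on WT arrays and at 14.67, 13.98, 14.39, 14.11 and 14.55 on SCC arrays. The SCC arrays lay on both sides of the WT range, with SCC replicate 1 highest and SCC replicate 2 lowest of all 10. The difference was -0.12 (SE 0.143, 95% interval -0.44 to 0.20, adjusted p 0.511; exact permutation p 0.46). Without SCC replicate 2 it was -0.03.

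**Figure D3:**
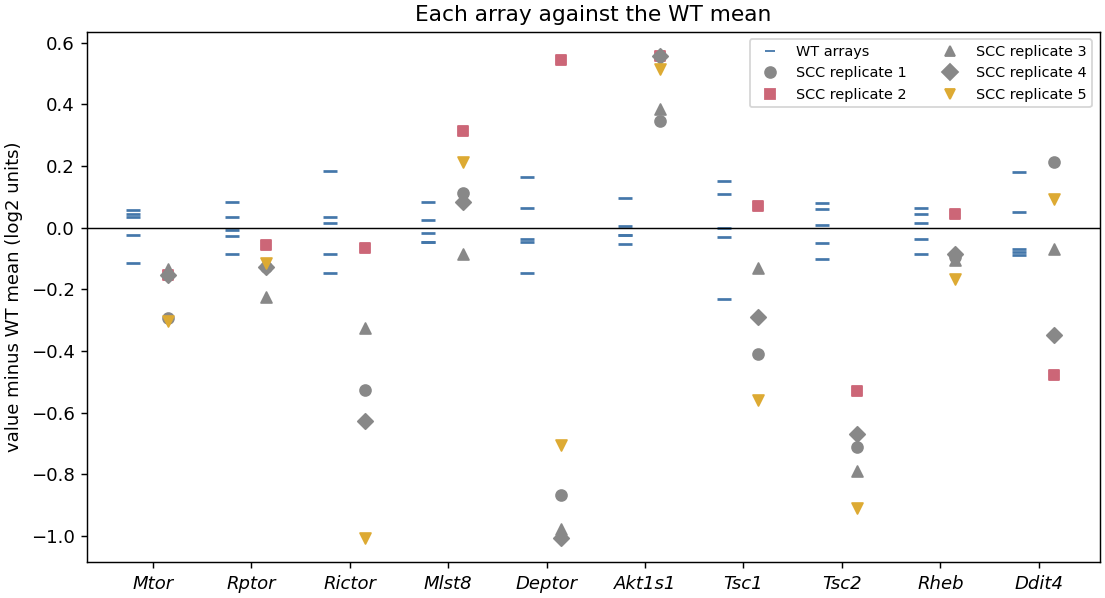
Value of each gene on each array less the mean of the 5 WT arrays, in log2 units; blue dashes are WT arrays and symbols are SCC replicates, with SCC replicate 2 in red squares and SCC replicate 5 in yellow triangles. SCC replicate 2 was the highest SCC array for 8 of the 10 genes and SCC replicate 5 the lowest for 5.

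The tumours differed among themselves more than the WT lungs did. The SD over SCC arrays exceeded that over WT arrays for 9 of the 10 genes, Rptor being the exception, and over all tested genes the median SD was 0.31 in SCC and 0.144 in WT. SCC replicate 2 was the highest SCC array for 8 of the 10 genes, a place it held for 39.2% of all tested genes, and the lowest for Ddit4. SCC replicate 5 was the lowest for 5 genes and the highest for none, against 27% and 14.3% of all genes. SCC replicate 2 also had the highest endothelial marker mean (11.89) and fibroblast marker mean (13.14) of the SCC arrays. The same held for alveolar type 1 (13.91), alveolar type 2 (15.36) and club cell markers (16.95), but not for ciliated cell or smooth muscle markers. Its proliferation marker mean was the lowest (9.80). The part of these cell types in this was not tested.

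Beyond the core genes, 96 further genes of the pathway were listed by role, and 93 of them had a tested probe (Irs2, Pdcd4 and Zbtb16 were paired with none). Of these 93, 30 rose and 17 fell, beside 25.5% higher and 28.4% lower over all tested genes. The count of each list below stands beside those same shares, and no list was tested as a group. With the 2-fold requirement, 11 were called higher and 8 lower (11.6% and 13.4% of all genes). Their median difference was 0.05. Without both SCC arrays that stood apart, 57 passed.

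**Figure D4:**
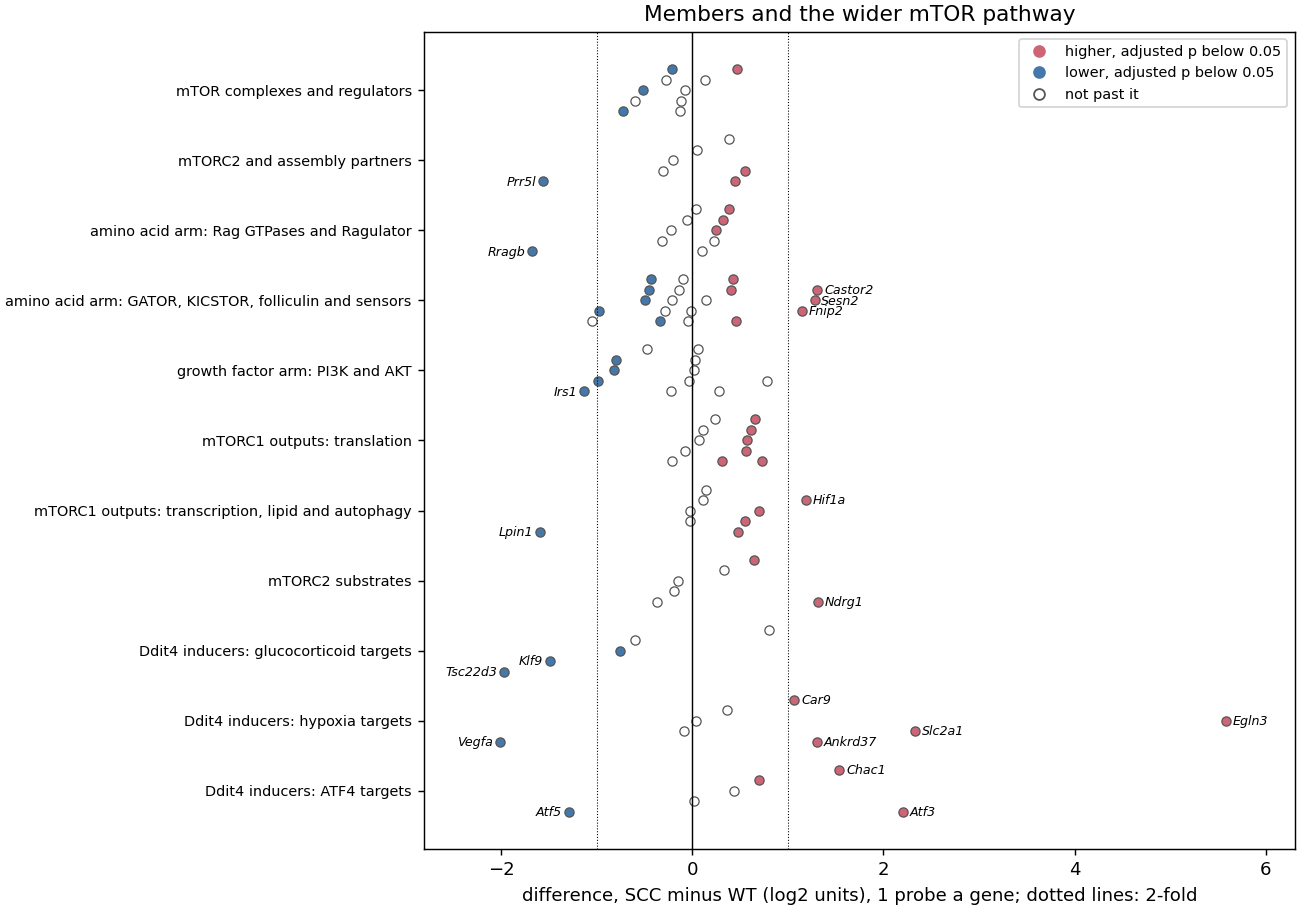
Difference between SCC and WT in log2 units for the 10 genes (top row) and for the 93 other pathway genes by role, 1 point per gene; red rose and blue fell at an adjusted p below 0.05, open points did not pass, and called genes are named. The 10 core genes lay between -0.72 and 0.47, inside the 2-fold lines, while called genes of the other rows reached from -2.01 (Vegfa) to 5.58 (Egln3).

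A list of 7 genes held partners of mTORC2, factors of complex assembly and Tbc1d7 of the TSC complex. Of these, Tbc1d7 (above) and Telo2 rose, 1 fell and 4 did not pass. Prr5l, which encodes a Rictor-binding partner (Protor-2), fell by 1.56 (adjusted p 4.26e-06), from 13.07 to 13.37 on WT arrays to 11.50 to 11.82 on SCC arrays. It had the largest difference of this list, in the same direction as Rictor. Telo2, which helps fold mTOR and related kinases, rose by 0.55. Mapkap1, which encodes the mTORC2 subunit SIN1, differed by 0.05 (adjusted p 0.614).

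Of the 10 genes for the Rag GTPases, Ragulator and SLC38A9, which carry the amino acid signal to mTORC1 at the lysosome, 3 rose, beside 25.5% of all tested genes, and 1 fell. The 3 were the Ragulator subunits Lamtor1 (0.39), Lamtor4 (0.32) and Lamtor5 (0.25). Rragb fell by 1.67 (adjusted p 0.0181), but its probe was dim. It was at 6.13 to 6.41 on WT arrays, at 6.52 on SCC replicate 2 and at 3.28 to 4.61 on the other SCC arrays, and the call was lost under scaling to the 75th percentile (-1.18) and with slide as a block. With normexp background correction it was -0.54 (adjusted p 0.00908), under 2-fold.

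The 19 genes of GATOR1, GATOR2, KICSTOR, folliculin and the amino acid sensors moved both ways, with 6 higher, 5 lower and a median of -0.10. GATOR1, the complex that inactivates the Rag GTPases, had Nprl2 (-0.43) and Nprl3 (-0.34, with SCC replicate 2 at 8.71, above all WT arrays) lower, and Depdc5 at -0.21 did not pass. In GATOR2, which opposes it, Mios (0.41) and Wdr24 (0.43) rose and Seh1l (-0.45) and Wdr59 (-0.49) fell. The sestrins, which sense leucine or stress, split. Sesn2 rose by 1.28 (adjusted p 4.08e-05), from 10.09 to 10.24 on WT arrays to 11.23 to 11.80 on SCC arrays, and Sesn3 rose by 0.46 (adjusted p 0.0431), while Sesn1 fell by 0.97 (adjusted p 7.07e-05). For Sesn3, SCC replicate 5 was at 8.07, below the WT range of 8.08 to 8.47, and the other SCC arrays were at 8.79 to 8.94. Castor2, a relative of the arginine sensor, rose by 1.31 (adjusted p 0.00052) from a dim probe, and by 0.46 (adjusted p 0.00398), under 2-fold, with normexp background correction. Castor1 at -1.05 did not pass (adjusted p 0.0691). Fnip2, a folliculin partner, rose by 1.15 (adjusted p 0.014), although SCC replicate 2 was at 10.11, below all WT arrays.

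PI3K and AKT carry growth factor signals to the TSC complex. Of 12 tested genes of this arm, 4 fell, beside 28.4% lower over all tested genes, and 8 did not pass. None rose in the limma fit or with the methods' t-test (2 were higher at an unadjusted p below 0.05, Pik3cb and Pik3r2). Pik3cb, which encodes a catalytic subunit, was at 10.17 on SCC replicate 2, below the WT range of 10.73 to 10.87, and at 11.72 to 12.10 on the other SCC arrays. The insulin receptor substrate Irs1 fell by 1.13 (adjusted p 0.000192), from 11.65 to 11.99 on WT arrays to 10.33 to 11.05 on SCC arrays. With all arrays it was the gene of this list with the largest difference. The catalytic subunit Pik3ca fell by 0.80 and the regulatory subunit Pik3r1 by 0.98, and the adaptor Grb10, itself an mTORC1 substrate, by 0.82. Pik3r1 was at 11.10 on SCC replicate 2, inside the WT range of 10.85 to 11.27, and at 9.65 to 10.08 on the other SCC arrays. The kinase genes Akt1 and Akt2 differed by 0.06 (adjusted p 0.682) and 0.02 (adjusted p 0.888). All 8 endothelial markers fell on the same arrays, and their part in this list was not tested.

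Of 11 tested genes in the translation branch of mTORC1, 6 rose, beside 25.5% higher over all tested genes. None fell, beside 28.4%, and none was lower with the methods' t-test or at an unadjusted p below 0.05. Eif4b, a cofactor of the cap-binding helicase, rose by 0.73 (adjusted p 0.000141), Larp1, which binds mRNAs that mTORC1 controls, by 0.66, and the scaffold Eif4g1 by 0.62. The cap-binding protein Eif4e rose by 0.31 and its repressor Eif4ebp1, an mTORC1 substrate, by 0.57 (adjusted p 0.0136). For Eif4ebp1, SCC replicate 2 was at 13.16, inside the WT range of 13.05 to 13.27, and the other SCC arrays were at 13.67 to 14.04. Eef2k rose by 0.56 (adjusted p 0.019), with SCC replicate 2 at 8.66, inside the WT range of 8.33 to 8.72. Rps6kb1, which encodes the S6 kinase, differed by -0.21 (adjusted p 0.177) and its substrate Rps6 by -0.08 (adjusted p 0.55). None of this list was called at 2-fold, in limma, at an unadjusted p or with the methods' t-test.

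Of 9 genes for transcription, lipid and autophagy outputs, 4 rose (25.5% over all tested genes) and 1 fell (28.4%). Hif1a, the oxygen-sensing transcription factor, rose by 1.19 (adjusted p 0.00042), from 11.19 to 11.44 on WT arrays to 11.89 to 12.91 on SCC arrays. Atf4 rose by 0.70, and the lysosomal regulators Tfe3 and Tfeb rose by 0.55 and 0.48. Tfeb passed narrowly (adjusted p 0.044), with SCC replicate 2 at 6.44, below the WT range of 6.54 to 6.66. Lpin1, a phosphatidate phosphatase, fell by 1.59 (adjusted p 9.83e-05). The kinase gene Ulk1, which starts autophagy, and the sterol regulators Srebf1 and Srebf2 did not pass.

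Of 6 substrates and targets of mTORC2, 2 rose, beside 25.5% of all tested genes, and 4 did not pass. Sgk1 rose by 0.65 (adjusted p 0.00437), with WT arrays at 15.23 to 15.48 and SCC arrays at 15.78 to 16.53. Ndrg1, which SGK1 phosphorylates and which hypoxia also induces, rose by 1.32 (adjusted p 0.00664), but on SCC replicate 2 it was at 12.30, inside the WT range of 12.24 to 12.41, while the other SCC arrays were at 13.72 to 14.14. No gene of this list fell in limma, at an unadjusted p or with the methods' t-test.

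Genes that respond to glucocorticoids, hypoxia and ATF4, each known to induce Ddit4, were listed beside Ddit4, which itself differed by -0.12. Of 5 tested genes in the glucocorticoid list, which includes the paralogue Ddit4l, 3 fell and none rose, at an unadjusted p and with the methods' t-test as well. Tsc22d3, also called Gilz, fell by 1.97 (adjusted p 2.48e-05), Klf9 by 1.49 (adjusted p 0.00025) and the clock gene Per1 by 0.75. Fkbp5, at -0.60, did not pass (adjusted p 0.167). Ddit4l, at 0.80, did not pass either (adjusted p 0.0944), and it was highest on SCC replicate 2 (10.18, against 8.25 to 8.87 on the other SCC arrays).

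Of 8 hypoxia targets, 4 rose and 1 fell, beside 25.5% and 28.4% of all tested genes. Egln3, a prolyl hydroxylase that HIF induces, rose by 5.58 (adjusted p 5.64e-05), from 5.77 to 6.53 on WT arrays to 9.41 on SCC replicate 2 and 11.53 to 12.83 on the others. The glucose transporter Slc2a1 rose by 2.33 (adjusted p 0.00141), and Ankrd37 by 1.31 and Car9 by 1.07 (0.66, under 2-fold, with normexp background correction). Vegfa, the endothelial growth factor, fell by 2.01 (adjusted p 8.08e-05), from 15.45 to 15.74 on WT arrays to 13.20 to 14.43 on SCC arrays. Bnip3 and Pdk1, at -0.09 and 0.04, did not pass, so the list did not move as 1 group.

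Of 6 ATF4 targets, 3 rose and 1 fell, beside the same 25.5% and 28.4%. Atf3 rose by 2.20 (adjusted p 0.0119), Chac1 by 1.54 (adjusted p 0.0293) and the asparagine synthetase gene Asns by 0.70, and Atf5 fell by 1.29 (adjusted p 1.85e-05). For Atf3 and Chac1, SCC replicate 2 (9.27 and 9.45) did not share the rise of the other 4 SCC arrays, and without it the differences were 2.83 and 2.05. Chac1 lost the threshold in 7 of 10 fits that left out 1 array (adjusted p up to 0.0681) and with the methods' t-test (adjusted p 0.0502). Of the 47 pathway genes that passed, 12 had SCC replicate 2 inside the WT range or beyond it on the opposite side (25.5%, against 18.5% of all genes that passed). That held for 2 genes on SCC replicate 4 (Lamtor4 and Lamtor5), for 1 on SCC replicate 5 (Sesn3) and for none on SCC replicates 1 and 3. With slide as a block, 17 of the 93 pathway genes passed, 8 higher and 9 lower. Slc2a1, Atf3, Chac1, Rragb, Ndrg1, Castor2, Hif1a, Fnip2 and Irs1 were then no longer called, although their directions were kept and their differences were between 0.97 and 2.04 in size (1.19 for Hif1a, 1.42 for Castor2 and 1.62 for Chac1). Per1, at -1.07 (adjusted p 0.039), was called with that block and not without it.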

How the data were processed

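Whole-lung or whole-tumour RNA had been labelled with Cy3 and hybridised to Agilent whole-mouse-genome arrays. Per the file headers and labels, the authors read the scans with Agilent Feature Extraction 12, and the deposited scanner files hold background-subtracted intensity values per spot. The deposited table of log2 values, quantile-normalized per the methods, matched the scanner values recomputed here (r of at least 0.99995) and served as an alternative. Groups came from the sample titles. The labels do not say whether samples of a group were separate animals, so p-values measure the spread between these samples.

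Control and flagged spots were dropped, spots of a probe were averaged on the log2 scale, and the 41174 probes were quantile-normalized. A probe was tested if above background (flagged so on at least 0.5 of its spots) on at least 4 of 5 arrays of a group. limma 3.58.1 (R 4.3.3) was fitted to all 10 arrays without covariates, in place of the one-way analysis of variance of the methods, which for 2 groups is a t-test and was run as an alternative. Single genes were also compared by an exact two-sided permutation test, not adjusted over the genes. Accessions were paired with symbols through RefSeq genes (GRCm38.p6), which named 28223 probes, and promoter sequences came from RefSeq of that assembly. The fit was tested on simulated data.

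Alternatives were 75th percentile scaling, normexp, other filters, slide and replicate blocks, array weights, dimmer probes, the deposited table and leaving out arrays. Leaving out SCC replicates 2 and 5 together was chosen after seeing the data. The genes, lists and markers were chosen with earlier results of these data known. The genes named are the 10 genes, every called gene of the pathway lists and those a sentence on them needed. Values of 2 genes first listed in the pathway lists are not reported here, and they were left out of its counts. The number of arrays limits the precision.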

Additional observations from a re-analysis of the deposited data

Results flagged for a closer look

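Among the 20 groups of 5 arrays examined, 1 had an array far from the others. Deptor on SCC replicate 2 was at 11.49 and the next SCC array at 10.24, a gap of 0.805 of the group's range, where 0.71 is the critical value at the 95% level. Chance gives about 1 such group in 20.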

How the results depend on the processing

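Tsc2 kept its direction and its side of the threshold under every alternative and without each array (adjusted p 3.73e-05 to 0.000905 when leaving out 1), and Akt1s1 under all but slide as a fixed block. The number of the 10 genes that passed was 1 with slide as a fixed block (Tsc2), 2 with a replicate block (Akt1s1 and Tsc2) and 2 to 6 when leaving out 1 array, with 6 without SCC replicate 2 (Deptor and Tsc1 added) and 2 without WT replicate 3 or 5 or SCC replicate 1 or 4. It was 4 with 75th percentile scaling, the authors' table, the strict filter or a random slide block, 3 with normexp, no filter or the dimmer probes, 5 with the t-test and 6 with array weights. In the main limma fit the dimmer Deptor probe differed by -1.1, past 2-fold, but missed the threshold (adjusted p 0.0697). None of the 10 was called at 2-fold under any setting by its brightest probe, or by its second in the main limma fit. The third Rictor probe was (-1.18, adjusted p 0.0145), as was the dimmer Deptor probe without SCC replicate 2 (-1.35) or replicates 2 and 5 (-1.43), with array weights (-1.17) and with slide as a fixed block (-2.57). Over all probes, 6954 were called, 4036 with normexp (1933 higher, 2103 lower), 2989 with slide as a fixed block and 6571 with the replicate block. With slide as a fixed block, 17 pathway genes passed and 11 were called at 2-fold. The replicate block gave 40 passing pathway genes, and the numbers do not pair the samples (correlation of deviations -0.10 to 0.01). Signs turned for Rheb with 75th percentile scaling (0.03), Ddit4 with array weights (0.01) and the second Tsc1 probe when leaving out 1 array (-0.11 without SCC replicate 3 and -0.04 without SCC replicate 1, up to 0.31 without SCC replicate 5), none of which passed. Scaling to the 75th percentile moved the median difference of all probes by 0.12, from -0.09 to 0.03, and the calls from 3014 higher and 3940 lower to 3504 and 3080. The causes were not tested. Only the second slide held both groups, with 1 WT array. Probes near background, such as those of Rragb and the dimmer Rictor probes, are the least certain.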
